A study of Mus musculus with 15 samples.

Results

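The comparison set mouse hearts at 12 h of CELF2 induction against control hearts, 3 against 3, over every gene with a mean of at least 1 RPKM in these 6 hearts. RPKM is the number of reads per kilobase of coding sequence, scaled to the mapped reads of each library. This minimum kept 10588 of the 16199 genes in the table (65.4%), with Fez1 just inside at a mean of 1 RPKM and Bcl11b just outside at 0.998 RPKM. The question was which mRNAs differed at the earliest time point of induction. Poly(A)+ RNA of ventricles, with the atria removed, had been sequenced from adult FVB mice of 14 to 16 weeks. The 12 h mice were MHCrtTA/TRECUGBP2 bitransgenic animals, in which a Myh6 promoter drives the reverse tetracycline transactivator in cardiomyocytes and a Tet-responsive transgene encodes FLAG-tagged human CELF2. Control mice carried MHCrtTA without the CELF2 transgene. All 6 mice were fed doxycycline at 2 g/kg, the 12 h mice for 12 h and the control mice for 72 h, and food was taken away for a few hours before the doxycycline food was given. This dose is that of the labels and of the paper's methods, and a supplementary list of the animals gives another. Transgene and length of doxycycline therefore differed together, the hour of harvest was not stated in the labels or the paper's methods, and the parts of CELF2, doxycycline, feeding and time of day cannot be told apart.

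CELF2 belongs to a family of RNA-binding proteins that control alternative splicing, mRNA turnover and translation, and that oppose MBNL proteins on many transcripts during heart development. The circadian clock, which took up many of the genes below, is a feedback loop present in most cells including cardiomyocytes. Its activators, ARNTL with CLOCK or NPAS2, bind E-box sequences and switch on their own repressors, the PER and CRY proteins and CIART, as well as the nuclear receptors NR1D1 and NR1D2, which in turn repress Arntl through ROR elements. The PAR bZIP factors DBP, TEF and HLF carry the rhythm on to D-box sequences, where NFIL3 acts against them. In a healthy heart many mRNAs therefore rise and fall over the day.

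Every library came from its own animal. The sample titles carry a code whose meaning is not given, and each group held 1 heart of a code called A here (replicate 1) and 2 of a code called B (replicates 2 and 3). The first principal component of the 6 hearts held 47.7% of the variance, of which the code accounted for 68.8% and the group for 7.63%. The second held 28.3%, of which the group accounted for 82.2%. Replicates 1 and 3 of the 12 h group lay at opposite ends of the first component. Rank correlations between hearts ran from 0.946 to 0.988. The number of genes listed at 0 was 1726, 1803 and 1961 at 12 h and 1707, 1731 and 1718 in control hearts, and library depth is unknown. Y-linked mRNA was present in control replicate 3 (53.4 RPKM summed) and at no more than 0.06 RPKM in the other 5 hearts. Cardiomyocyte markers summed to 56810 to 63610 RPKM at 12 h and 54820 to 56660 RPKM in control hearts, and all 13 were above the minimum, none of them called. The atrial markers, in a tissue from which atria had been removed, summed to 84.9, 569 and 204 RPKM at 12 h and to 86.1, 122 and 186 RPKM in control hearts, so that 12 h replicate 2 stood out. Erythroid markers summed to 1688 to 2290 RPKM at 12 h and 994 to 1654 RPKM in control hearts, with 0 of 4 tested members called. No member of the 14 marker lists passed the test in the fit without covariates. Neutrophil markers had 0 tested members, and the mesothelial, lymphocyte and Schwann cell and neuron lists had 1, 2 and 3. A fit with the title code as a covariate called 2 fibroblast markers lower. It also called 1 endothelial marker higher and 1 lower, and 1 adipocyte marker higher and 2 lower. That fit called 1.13% of all genes tested higher and 6.21% lower. Whether red cells, atrial tissue or the Y-linked difference had a part in the results was not tested, apart from a fit with Y-linked mRNA as a covariate.

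Celf2 mRNA was present at 192.22, 92.54 and 84.48 RPKM in 12 h replicates 1, 2 and 3, and at 8.54, 11.27 and 9.64 RPKM in the control hearts. All induced hearts lay above all control hearts, and the 12 h heart of code A was the highest. The mean ratio was 22.5 within code A (1 heart against 1) and 8.47 within code B (2 against 2). limma gave a log2 change of 3.49 (SE 0.26, adjusted p = 9.04e-06), and the exact two-sided permutation test of the RPKM values gave p = 0.1, the smallest that 3 hearts against 3 allow. Reads of the human transgene and of the mouse gene (chr2:6460751-7002348 of mm9, minus strand) are not separated in this value. Its paralog Celf1 had 22.70, 15.46 and 13.04 RPKM at 12 h against 22.64, 24.37 and 24.46 RPKM, where replicate 1 lay within the control range, and it did not pass the test (log2 change -0.51, SE 0.21, adjusted p = 0.359). Mbnl1 (log2 change -0.27, adjusted p = 0.721) and Mbnl2 (-0.09, adjusted p = 0.821), which encode the opposing MBNL splicing factors, overlapped between the groups.

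Among the 10588 genes, 44 were called at a Benjamini-Hochberg adjusted p under 0.05 (0.416% of those tested), 13 higher (0.123%) and 31 lower (0.293%) at 12 h. Groups that did not overlap were common, found for 354 genes with higher 12 h values (3.34%) and 1384 with lower ones (13.1%), and all 44 called genes were among them. Groups that do not overlap fix the sign within each code, so each called gene had the same sign within code A and within code B. The whole table was shifted slightly down at 12 h, by a median log2 change of -0.10, with 69.9% of genes below 0 and 5th and 95th percentiles of -0.49 and 0.24. Median-ratio scaling removed this shift and called 23 higher and 33 lower, raising the share of higher calls from 29.5% to 41.1% and keeping 41 of the 44 genes. The exceptions were Nr1d2 (adjusted p = 0.112), Prrg3 (0.0518) and Pfkfb3 (0.0517). With the title code as a covariate 120 genes were higher (1.13%) and 658 lower (6.21%), together 7.35% of those tested and including all 44. With the presence of Y-linked mRNA as a covariate 9 were higher and 17 lower, 23 of them among the 44. Leaving out 12 h replicate 1 raised the calls to 182, while 11 were left without 12 h replicate 2, 18 without 12 h replicate 3, 32 without control replicate 1, 11 without control replicate 2 and 14 without control replicate 3. Celf2, Arntl, Npas2, Per2, Per3, Tef, Tspan4, Spon2, Ackr4 and Papln were called in all 6 of these fits.

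**Figure D1:**
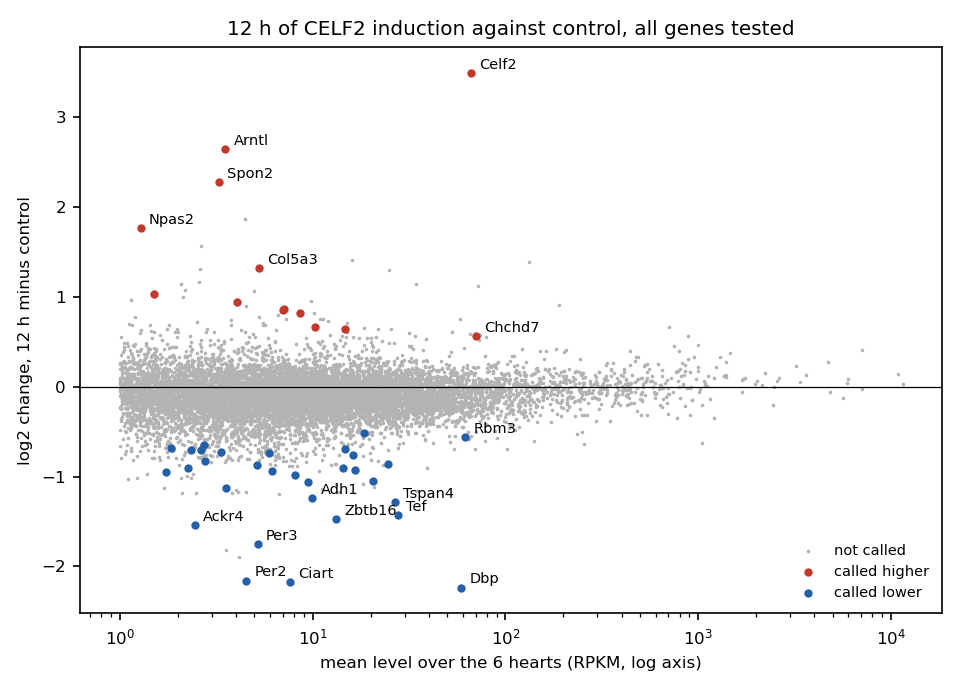
Log2 change at 12 h minus control (vertical axis) against the mean RPKM of the 6 hearts (horizontal log axis) for the 10588 genes tested. Grey points are genes not called, red points the 13 called higher and blue points the 31 called lower. Most called genes sat at moderate levels, with a median of 7.07 RPKM beside 8.61 RPKM for all genes tested.

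Of the called genes, 18 changed at least 2-fold (6 higher and 12 lower), out of 50 tested genes with a change of that size. The largest log2 changes were 3.49 (Celf2), 2.64 (Arntl), 2.27 (Spon2) and 1.76 (Npas2) upward, and -2.24 (Dbp), -2.17 (Ciart), -2.16 (Per2) and -1.75 (Per3) downward. Over 4 lists of clock genes and clock outputs, 13 of 35 tested genes were called (37.1%, beside 0.416% of all genes tested), 4 higher and 9 lower, and the groups did not overlap for 4 genes with higher and 16 with lower 12 h values (3.34% and 13.1% of all genes tested). These lists were drawn up with earlier results of these data known, so their counts are a description.

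Among the clock activators 2 of 5 tested genes rose. Arntl, the core activator also named Bmal1, was measured at 7.18, 6.41 and 5.77 RPKM at 12 h and at 0.83, 0.53 and 0.51 RPKM in control hearts, so the lowest 12 h heart was several-fold above the highest control heart. Its log2 change was 2.64 (SE 0.19, adjusted p = 9.04e-06), with 2.53 within code A and 2.69 within code B. Npas2, a CLOCK paralog that pairs with ARNTL, had 2.58, 2.39 and 1.81 RPKM at 12 h and 0.39, 0.21 and 0.33 RPKM in control hearts. Its groups were also far apart, with a ratio of means of 7.29 and a log2 change of 1.76 (SE 0.15, adjusted p = 3.43e-05). All control values of Arntl and Npas2 lay below the minimum of 1 RPKM, which both genes passed through their 12 h values. Apart from the fits without 1 heart there were 14 alternatives, and 12 of them tested Npas2. Clock itself did not pass the test. It was at 7.39 RPKM in 12 h replicate 1 but at 1.42 and 0.93 RPKM in the others, against 3.74, 2.87 and 1.62 RPKM in control hearts (log2 change -0.16, SE 0.62, adjusted p = 0.937). Rora, a nuclear receptor that activates Arntl, did not pass the test either (log2 change -0.38, adjusted p = 0.314).

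Clock repressors fell in 4 of 11 tested genes and rose in 1, with a median log2 change of -0.70 beside -0.10 for all genes. Per2, a PERIOD repressor, was at 1.06, 1.19 and 1.79 RPKM at 12 h and at 6.47, 7.67 and 8.91 RPKM in control hearts. Per3, its paralog, was at 2.59, 1.81 and 1.94 RPKM against 8.95, 8.67 and 7.19 RPKM. Both genes were well separated in all hearts, with log2 changes of -2.16 (SE 0.21, adjusted p = 9.96e-05) and -1.75 (SE 0.15, adjusted p = 3.43e-05). Ciart, a repressor that binds ARNTL and is listed in the table as Gm129, was at 1.55, 2.82 and 3.19 RPKM against 11.48, 13.38 and 13.40 RPKM. That difference of 5.06-fold between means gave a log2 change of -2.17 (SE 0.32, adjusted p = 0.00654), and the call ended without control replicate 2 (adjusted p = 0.0502). Nr1d2, which encodes the heme receptor REV-ERB beta, had 19.14, 11.38 and 10.07 RPKM at 12 h and 32.57, 26.58 and 24.09 RPKM in control hearts. Its groups were closer together (log2 change -1.05, SE 0.21, adjusted p = 0.0497), and among the 6 fits without 1 heart the call held in 1, without 12 h replicate 1, with adjusted p up to 0.197 (without 12 h replicate 3). The member that rose, Nfil3, was at 8.91, 10.06 and 8.63 RPKM against 4.36, 5.54 and 4.79 RPKM, with a log2 change of 0.85 (SE 0.15, adjusted p = 0.0281). Its call also held without 12 h replicate 1 and ended without any other heart, with adjusted p up to 0.14 (without 12 h replicate 2).

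Among the repressors not called, Per1 was split between the 12 h hearts, at 4.36 RPKM in replicate 1 and 17.42 and 16.34 RPKM in the others, against 20.20 to 26.20 RPKM in control hearts (log2 change -1.08, adjusted p = 0.33). Per1 and Bhlhe41 were called lower with the title code as a covariate (adjusted p = 0.0294 and 0.0151). Cry1 (log2 change -0.15), Cry2 (-0.45), Nr1d1 (-0.42) and Bhlhe40 (-0.27) were called in neither fit.

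The PAR bZIP output factors fell in 3 of 3 genes. Dbp was at 10.54, 18.55 and 38.74 RPKM at 12 h and at 78.92, 102.91 and 104.35 RPKM in control hearts. The 12 h hearts spread over a wide range, and replicate 3 still lay below all control hearts (log2 change -2.24, SE 0.35, adjusted p = 0.0114, within-code changes -2.85 and -1.93). Tef was tighter, at 15.56, 13.26 and 15.35 RPKM against 35.56, 44.97 and 40.90 RPKM, a log2 change of -1.43 (SE 0.13, adjusted p = 6e-05). Hlf was at 6.02, 4.96 and 6.86 RPKM against 10.90, 13.77 and 14.19 RPKM, a log2 change of -1.06 (SE 0.16, adjusted p = 0.00807). The calls of Dbp and Hlf ended without 12 h replicate 2, control replicate 2 or control replicate 3, with adjusted p up to 0.076 and 0.0709, whereas Tef was called in all 6 fits. Coding exons of Dbp overlap exons of Sphk2, a protein-coding gene on the opposite strand. The paper describes strand-specific sequencing, and whether the counting used strand is not given. Coding exons of Celf2, Clmp, Slc25a33, Itpr3 and Adh1 also overlap exons on the opposite strand, of genes not listed as protein-coding.

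Of 17 other genes known to follow the clock in several tissues, 1 rose and 2 fell. Tspan4, which encodes a tetraspanin of the cell surface, was at 14.47, 17.20 and 14.60 RPKM against 38.69, 36.45 and 39.19 RPKM. The groups were far apart for their spread, with an SD of 1.54 RPKM at 12 h and 1.46 RPKM in control hearts (n = 3 each) and a log2 change of -1.28 (SE 0.18, adjusted p = 0.00465). Wee1, the kinase that holds back entry into mitosis, was at 1.72, 1.81 and 1.99 RPKM against 2.79, 4.16 and 4.18 RPKM (log2 change -0.83, adjusted p = 0.0209). Leo1, a subunit of the PAF1 complex that accompanies RNA polymerase II, rose by 0.82 on the log2 scale (adjusted p = 0.0114), its mean being 11.1 ± 1.39 RPKM at 12 h and 6.08 ± 0.761 RPKM in control hearts (SD, n = 3 each). Wee1 lost its call without 12 h replicate 2 or 3 or control replicate 2 or 3 (adjusted p up to 0.152), and Leo1 without 12 h replicate 2 or 3 or control replicate 2 (up to 0.09). With the title code as a covariate 8 of the 17 were lower and 1 higher, beside 6.21% and 1.13% of all genes tested. The added ones included Klf15, a Kruppel-like factor of cardiac metabolism, at 10.22, 12.02 and 12.09 RPKM against 17.67, 23.93 and 26.34 RPKM (adjusted p = 0.0783 without and 0.00109 with the covariate), and the deubiquitinase gene Usp2 (adjusted p = 0.117 and 0.00202). None of the 15 tested ion channel genes that have been linked to the cardiac clock was called in either fit. Their median log2 change was -0.06.

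**Figure D2:**
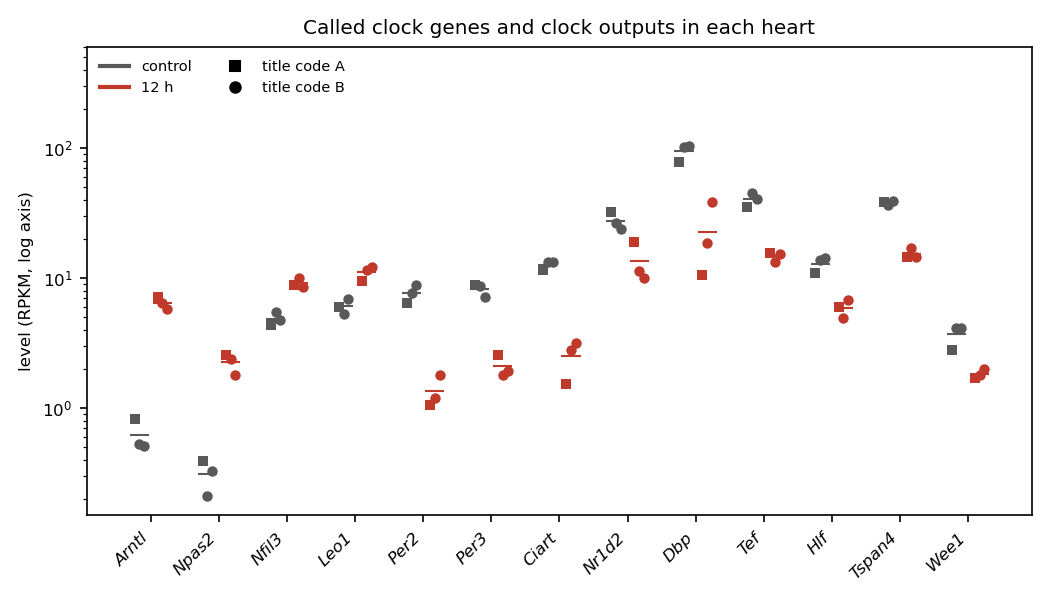
Level (RPKM, vertical log axis) of the 13 called clock genes and clock outputs in each of the 6 hearts. Grey marks are control hearts, red marks 12 h hearts, squares title code A, circles title code B, and horizontal bars group means. Groups do not overlap for any of these genes, with Arntl between 5.77 and 7.18 RPKM at 12 h and between 0.51 and 0.83 RPKM in control hearts.

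The start regions of these genes are shown because the clock proteins act on short sequences there. Promoters from 250 bases before to 50 after the start were taken from RefSeq (GRCm38.p6), which held 8498 of the tested genes, 25 of the 31 called lower and 10 of the 13 called higher. Both strands were searched. A glucocorticoid element, searched as well, was present in 0 of the 10 called higher and 0 of the 25 called lower (0.447% of tested genes). A cAMP element was present in 1 of the 10 and 1 of the 25 (3.65% of tested genes). The palindromic E-box CACGTG was present in 8 of the 25 called lower (32%) and in 1 of the 10 called higher (10%), beside 12.0% of tested genes and 8.09% of all 27025 promoters. In the windows that follow, capitals mark the match and each sequence is on the strand of its gene. The E-boxes of Ciart began 44, 58 and 116 bases before the start (chr3:95882255-95882284, chr3:95882269-95882298 and chr3:95882327-95882356, minus strand), and the first pair of windows overlaps. Those of Tef lay in promoters of separate starts (chr15:81802534-81802563 and chr15:81811264-81811293, plus strand), that of Tspan4 51 bases before its start (chr7:141476317-141476346, plus strand) and that of Slc25a33, the gene of a mitochondrial pyrimidine nucleotide carrier, 8 bases before its start (chr4:149774258-149774287, minus strand).
Ciart proximal E-box: cgtgcagaaccgCACGTGtctgggaggggg
Ciart middle E-box: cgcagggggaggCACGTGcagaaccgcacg
Ciart distal E-box: tgcatctagagtCACGTGttgccggtaagc
Tef first E-box: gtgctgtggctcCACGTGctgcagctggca
Tef second E-box: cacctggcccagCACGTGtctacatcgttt
Tspan4 E-box: cccccatggagcCACGTGcagagccacgag
Slc25a33 E-box: cccggcctccgcCACGTGacggccgcgcgc
The other called-lower genes with an E-box were Adh1, Cpeb1, Itpr3 and Pfkfb3, and Wsb1 was the one called higher. A window also held this E-box in Cry1, Per1 and Bhlhe41, which were not called.

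The ROR element, searched as AANT followed directly by AGGTCA, was present in 2 of the 10 called-higher promoters (20%), in 0 of the 25 called lower, and in 0.141% of tested genes and 0.259% of all promoters. They were those of Arntl, 27 bases into the transcript (chr7:113207528-113207557, plus strand), and Leo1, 66 bases before the start (chr9:75441448-75441477, plus strand). The D-box TTATGTAA was present in 1 called-lower promoter, that of Per3, with matches 158 and 205 bases before the start (chr4:151044805-151044834 and chr4:151044852-151044881, minus strand), beside 0.659% of tested genes. A match describes the letters of these windows and not the binding of a factor.
Arntl ROR element: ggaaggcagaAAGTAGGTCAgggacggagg
Leo1 ROR element: tgctggagaaAACTAGGTCAcaaaagtaaa
Per3 first D-box: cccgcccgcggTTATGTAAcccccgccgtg
Per3 second D-box: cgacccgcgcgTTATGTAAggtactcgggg
With the title code as a covariate the E-box was present in 15.0% of the promoters called lower and the ROR element in 3.53% of those called higher.

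Outside the clock lists 31 genes were called, 9 higher and 22 lower. Several encode secreted or matrix proteins. Spon2, a secreted matrix protein of the spondin family, was at 6.13, 5.73 and 5.39 RPKM at 12 h and at 0.89, 0.97 and 0.56 RPKM in control hearts. The 12 h hearts lay close together and far above control (log2 change 2.27, SE 0.22, adjusted p = 8.15e-05, within-code changes 2.25 and 2.28). All control values of Spon2 lay below the minimum of 1 RPKM, which it passed through its 12 h values. Col5a3, a chain of the fibrillar collagen V, was at 5.37, 8.80 and 9.24 RPKM against 2.59, 2.80 and 2.88 RPKM. Replicate 1 was the lowest of the 12 h hearts, and the change was 0.93 within code A and 1.51 within code B (pooled log2 change 1.32, SE 0.27, adjusted p = 0.0497). Mmp14, a membrane-bound protease that cleaves collagen, was at 7.80, 10.96 and 9.21 RPKM against 4.50, 4.94 and 5.11 RPKM (log2 change 0.87, adjusted p = 0.0487). In the opposite direction, Papln, the extracellular protein papilin, was at 2.23, 2.13 and 1.76 RPKM against 4.36, 5.76 and 5.11 RPKM (log2 change -1.13, SE 0.15, adjusted p = 0.00343), and Lama5, a laminin chain of basement membranes, at 11.90, 12.99 and 10.81 RPKM against 17.74, 21.33 and 22.44 RPKM (log2 change -0.76, adjusted p = 0.0326). The calls of Col5a3 and Mmp14 held without 12 h replicate 1 and ended without any other heart (adjusted p up to 0.197 and 0.191), and that of Lama5 ended without 12 h replicate 2 or 3 or control replicate 2 or 3 (up to 0.18). Of 29 tested genes for collagens and other matrix proteins, 2 were called higher and 0 lower, with a median log2 change of -0.20, and the groups did not overlap for 9 members with lower 12 h values (13.1% of all genes tested). The title code fit called 3 of the 29 higher and 4 lower, beside 1.13% and 6.21% of all genes tested. Col5a3, Papln and Lama5 are not members of this list. Postn and Sparc, matrix protein genes of fibroblasts, were among those 9 (log2 changes -0.43 and -0.50, adjusted p = 0.32 and 0.249, and 0.0331 and 0.064 with the covariate).

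Receptors, adhesion and signalling genes made up another group. Ackr4, an atypical receptor that scavenges the chemokines CCL19, CCL21 and CCL25, was at 1.18, 0.80 and 1.07 RPKM at 12 h and at 3.83, 3.54 and 4.34 RPKM in control hearts. No other gene of the 22 tested for chemokines and cytokines was called. With the title code as a covariate 3 of the 22 were higher and 2 lower, Ackr4 among the latter. All genes tested had 1.13% higher and 6.21% lower in that fit. Ackr4 stood well apart (log2 change -1.54, SE 0.14, adjusted p = 3.7e-05). Nrp2, a co-receptor for semaphorins and VEGF, fell by 0.98 on the log2 scale (adjusted p = 0.015), with 5.33 ± 1.31 RPKM at 12 h and 10.9 ± 1.20 RPKM in control hearts (SD, n = 3 each). Itpr3, an inositol trisphosphate receptor that releases calcium from the endoplasmic reticulum, fell by 0.68 on the log2 scale (adjusted p = 0.0208). Among the genes that rose were Rasl11a, a small GTPase of the Ras family, at 2.56, 2.08 and 1.99 RPKM against 0.81, 0.81 and 0.84 RPKM (log2 change 1.03, adjusted p = 0.0116), and Clmp, an adhesion molecule of cell junctions, at 4.88, 5.83 and 5.80 RPKM against 2.61, 2.50 and 2.73 RPKM (log2 change 0.94, adjusted p = 0.00663). Both had nearly constant control values, and those of Rasl11a lay below the minimum of 1 RPKM. Rhoj, a small GTPase of endothelial cells, rose by 0.64 (adjusted p = 0.0478). Ackr4 was called in all 6 fits that left out 1 heart. Clmp lost its call without 12 h replicate 2 or control replicate 2 (adjusted p up to 0.0591), and Rasl11a without these or control replicate 3 (up to 0.0755). Nrp2 lost it without 12 h replicate 2 or 3 or control replicate 1 or 3 (up to 0.103), and Itpr3 and Rhoj without any heart other than 12 h replicate 1 (up to 0.144 and 0.243).

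Another 7 called genes, grouped after their calls were seen, encode enzymes and carriers of metabolism, and all were lower, as were 31 of the 44 called genes. Adh1, an alcohol dehydrogenase that also oxidizes retinol, was at 5.44, 5.77 and 5.74 RPKM at 12 h and at 11.58, 12.69 and 18.73 RPKM in control hearts. The 12 h values were almost identical and the control values spread (log2 change -1.24, SE 0.24, adjusted p = 0.0366). Ephx1, the microsomal epoxide hydrolase, was at 14.66, 17.12 and 20.06 RPKM against 27.99, 34.23 and 33.09 RPKM (log2 change -0.87, SE 0.14, adjusted p = 0.0116). Slc25a33 was at 10.70, 11.55 and 11.63 RPKM against 20.55, 23.79 and 21.48 RPKM (log2 change -0.93, SE 0.16, adjusted p = 0.0176). Prodh, the first enzyme of proline breakdown (log2 change -0.70, adjusted p = 0.0329), and Nme4, a mitochondrial nucleoside diphosphate kinase (-0.73, adjusted p = 0.0326), fell as well. So did Ptgr1, a prostaglandin reductase (-0.65, adjusted p = 0.0326), and Pfkfb3, which makes an activator of glycolysis (-0.70, adjusted p = 0.0418). The antioxidant and detoxification list had Ephx1 as its 1 call among 26 tested genes, a median log2 change of -0.18, and 9 members whose groups did not overlap with 12 h lower (13.1% of all genes tested), including Nqo1 (log2 change -0.49, adjusted p = 0.11) and Hmox1 (-0.69, adjusted p = 0.114). Of 22 tested genes for glucose uptake and glycolysis, Pfkfb3 was the 1 called, with a list median of -0.02. With the title code as a covariate the calls were 7 and 5 lower in these lists and 0 higher, beside 6.21% and 1.13% of all genes tested. Without 1 heart, Ephx1 lost its call in 3 of 6 fits (12 h replicate 2 or control replicates 2 or 3, adjusted p up to 0.0956), Slc25a33 and Ptgr1 in 4 (12 h replicates 2 or 3 or control replicates 2 or 3, up to 0.132 and 0.18), and Adh1, Prodh, Nme4 and Pfkfb3 in 5, all but that without 12 h replicate 1 (up to 0.162, 0.152, 0.14 and 0.24).

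Regulators of transcription, RNA and the cell cycle were fewer. Zbtb16, a zinc finger transcription factor strongly induced by glucocorticoids, was at 7.97, 6.72 and 5.61 RPKM at 12 h and at 15.97, 22.86 and 20.32 RPKM in control hearts (log2 change -1.47, SE 0.27, adjusted p = 0.0309). It was the 1 call among 20 glucocorticoid-induced genes, whose median log2 change was -0.34. The list did not move together, since Pdk4 had a log2 change of 1.39 (adjusted p = 0.0924) and Mt2 one of -1.08 (adjusted p = 0.206). With the title code as a covariate 1 member was higher and 6 lower, beside 1.13% and 6.21% of all genes tested. Cpeb1, a protein that controls polyadenylation and translation of mRNAs in the cytoplasm, fell by 0.94 on the log2 scale (adjusted p = 0.00654), with 4.11 ± 0.821 RPKM at 12 h and 8.27 ± 1.05 RPKM in control hearts (SD, n = 3 each). Rbm3, an RNA-binding protein induced by mild cold, was at 47.77, 53.77 and 47.99 RPKM against 72.65, 72.44 and 76.43 RPKM. Its change was small and even between hearts (log2 change -0.56, SE 0.11, adjusted p = 0.0487), and it was the 1 call among 46 hnRNP, SR and RBM genes (median -0.03). Ccnd1, cyclin D1, was at 9.97, 9.18 and 10.38 RPKM against 16.38, 19.16 and 21.49 RPKM (log2 change -0.91, adjusted p = 0.0339), and with Wee1 made 2 lower calls of 17 cell cycle genes (median -0.28). The title code fit called 4 of the 17 cell cycle genes and 4 of the 46 hnRNP, SR and RBM genes lower, beside 6.21% of all genes tested. Zbtb16 and Ccnd1 lost their calls without 12 h replicate 2 or 3 or control replicate 2 or 3 (adjusted p up to 0.18 and 0.177), Cpeb1 without 12 h replicate 2 or control replicate 2 (up to 0.0591), and Rbm3 without any of the 6 hearts (0.0511 to 0.18).

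Of 29 tested interferon response genes, Ifit3 fell and no other was called. Ifit3, an interferon-induced protein with tetratricopeptide repeats, was at 4.23, 3.68 and 2.66 RPKM at 12 h and at 7.82, 5.89 and 6.64 RPKM in control hearts (log2 change -0.87, SE 0.16, adjusted p = 0.0326). It has a close copy, Ifit3b, and since reads had to map uniquely the division between them is uncertain. The list had a median log2 change of -0.43 and 9 members whose groups did not overlap with 12 h lower (13.1% of all genes tested), among them Oasl2 (log2 change -0.78, adjusted p = 0.162) and Xaf1 (-0.82, adjusted p = 0.2). With the title code as a covariate 6 members were called lower and 0 higher, Oasl2 (adjusted p = 0.0349) and Xaf1 (0.0473) among them. Of all genes tested, that fit called 6.21% lower and 1.13% higher. The summed level of the list was 314, 334 and 119 RPKM at 12 h and 244, 236 and 286 RPKM in control hearts. Thus 12 h replicate 3 was the lowest heart and the other 12 h hearts were the highest. Lymphocyte markers had the same low heart, at 108, 140 and 39.0 RPKM against 64.6 to 99.0 RPKM. Only 2 of the 14 lymphocyte markers in the table were above the minimum, so their sum rests on few genes. Macrophage markers were at 174, 194 and 121 RPKM against 175 to 187 RPKM. The part of these cells in the interferon values was not tested. The call of Ifit3 ended without any heart other than 12 h replicate 1 (adjusted p up to 0.138).

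The remaining 7 called genes were of mixed function. Wsb1, a ubiquitin ligase adaptor (log2 change 0.66), and Chchd7, a mitochondrial protein with a twin cysteine motif (0.56), were higher. Chchd7 was the called gene with the highest mean level, at 81.12, 83.11 and 87.77 RPKM against 55.13, 55.33 and 59.66 RPKM. Prrg3, a membrane protein with a Gla domain (-0.94), the RING finger gene Lonrf1 (-0.90), the scaffold genes Frmd4b (-0.73) and Pdzd3 (-0.70) and the SNARE gene Snap47 (-0.52) were lower. Adjusted p ran from 0.0143 for Pdzd3 to 0.0366 for Chchd7. Leaving out 1 heart ended the call in 3 of 6 fits for Pdzd3 (12 h replicate 2 or control replicates 2 or 3, adjusted p up to 0.114), in 4 for Snap47 and Wsb1 (these or 12 h replicate 3, up to 0.11 and 0.14) and in 5, all but that without 12 h replicate 1, for Prrg3, Lonrf1, Frmd4b and Chchd7 (up to 0.147, 0.162, 0.144 and 0.18).

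**Figure D3:**
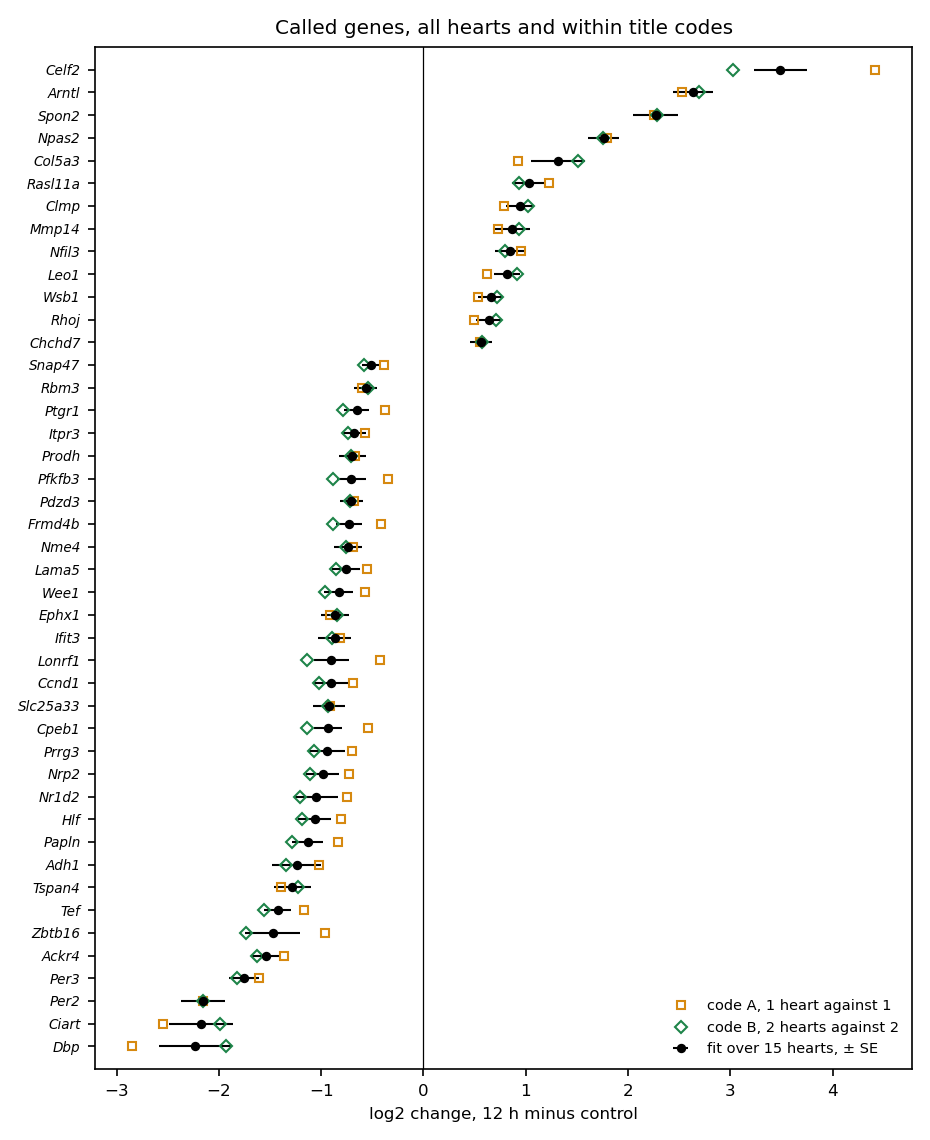
Log2 change at 12 h minus control (horizontal axis) for the 44 called genes. Black points with bars are the fit over 15 hearts ± SE, orange squares code A (1 heart against 1) and green diamonds code B (2 against 2). All points of a gene lie on 1 side of 0, as they must where the groups do not overlap. The codes differ most for Celf2 (4.41 and 3.02).

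Of the 32 pathway lists, 20 held no called gene in the fit without covariates. Immediate early genes had the highest median log2 change (0.24, 18 tested). The groups did not overlap for 4 of them with higher 12 h values and 0 with lower ones (3.34% and 13.1% of all genes tested). Fos, a subunit of the transcription factor AP-1, was at 5.78, 8.60 and 6.46 RPKM at 12 h and at 4.33, 0.99 and 0.66 RPKM in control hearts. The groups did not overlap, but control replicate 1 was close to the 12 h hearts (log2 change 1.86, SE 0.42, adjusted p = 0.0793). Pdk4, the kinase that turns off pyruvate dehydrogenase and a target of PPAR alpha, was at 297.6, 136.19 and 151.14 RPKM against 84.11, 65.88 and 60.64 RPKM, with 12 h replicate 1 the highest (log2 change 1.39, SE 0.33, adjusted p = 0.0924). The other PPAR alpha targets did not follow it (list median 0.02, 23 tested). With the title code as a covariate Fos (adjusted p = 0.0187) and Pdk4 (0.0231) were called higher. That fit called 2 immediate early genes higher and 0 lower, and 2 PPAR alpha targets higher and 1 lower. Of all genes tested it called 1.13% higher and 6.21% lower.

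Genes of heart contraction and stress were not called either. Among 27 tested sarcomere genes (median log2 change 0.00) the smallest adjusted p was that of the M-band gene Myom2, at 275.24, 237.76 and 223.87 RPKM against 154.28, 90.51 and 159.57 RPKM (log2 change 0.90, adjusted p = 0.0694). Of 20 heart stress genes (median -0.17), Gdf15, a stress hormone of the TGF-beta family and also an ATF4 target, was at 0.56, 0.78 and 0.62 RPKM against 1.91, 1.79 and 1.76 RPKM (log2 change -1.01, adjusted p = 0.109). Its groups were apart in a gene near the minimum level, and with the title code as a covariate it was called lower (adjusted p = 0.0179), as were 4 of the 20 heart stress genes in all. Among sarcomere genes that fit called 2 higher, Myom2 among them (adjusted p = 0.0149), and 2 lower. These counts stand beside 1.13% higher and 6.21% lower of all genes tested. Nppb, B-type natriuretic peptide, was at 84.63, 69.73 and 81.07 RPKM against 61.07, 49.84 and 46.46 RPKM (log2 change 0.58, adjusted p = 0.258). Nppa was high in 1 heart, at 29.23, 222.76 and 64.90 RPKM against 22.45, 27.88 and 64.11 RPKM (log2 change 1.12, adjusted p = 0.491), the same 12 h replicate 2 in which the atrial markers were high. Calcium cycling genes had a median of 0.05 (20 tested, smallest adjusted p = 0.386 for Calm3, a calmodulin gene) and ATF4 targets one of -0.12 (18 tested). The title code fit called 1 calcium cycling gene higher.

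Genes of energy supply and of protein synthesis and breakdown were not called. All 46 tested respiratory chain and ATP synthase genes stayed between log2 changes of -0.14 and 0.33, with a median of 0.08. Their summed level was 37720 to 37870 RPKM at 12 h and 34240 to 35440 RPKM in control hearts. The groups did not overlap for 6 of the 46 with 12 h higher and 0 with 12 h lower (3.34% and 13.1% of all genes tested). With the title code as a covariate 7 of the 46 were called higher and 0 lower, beside 1.13% and 6.21% of all genes tested. Uqcrh, a complex III subunit, had the smallest adjusted p (log2 change 0.30, adjusted p = 0.186). Proteasome subunits had a median of -0.15 over 30 genes, of which 9 did not overlap with 12 h lower, beside 13.1% of all genes tested (Psmd13 log2 change -0.25, adjusted p = 0.229, and 0.0412 with the title code as a covariate), and their median was -0.04 with median-ratio scaling. Cytosolic ribosome proteins (median -0.06, 44 tested, Rplp0 adjusted p = 0.436), mitochondrial ribosome proteins (-0.04, 49 tested, Mrps35 adjusted p = 0.181), ribosome biogenesis genes (-0.04, 27 tested, Bop1 adjusted p = 0.2) and mRNA decay and deadenylation genes (-0.14, 27 tested, Cnot10 adjusted p = 0.436) had no called member. Heat shock proteins (0.04, 30 tested, Cryab adjusted p = 0.309) and the unfolded protein response (-0.04, 20 tested, Herpud1 adjusted p = 0.283) had none. In the fit with the title code, 1 mitochondrial ribosome gene was higher and 2 were lower, 3 ribosome biogenesis genes and 1 gene of the unfolded protein response were lower, and 1 mRNA decay gene was higher.

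Signalling and lipid lists were likewise without calls, each named here with its member of smallest adjusted p. They were insulin and FoxO signalling (median -0.17, 28 tested, Igfbp3 log2 change 0.73, adjusted p = 0.0793) and TGF-beta signalling (-0.14, 24 tested, Id2 0.58, adjusted p = 0.0694). Angiogenesis and hypoxia genes followed (-0.07, 21 tested, the VEGF receptor gene Flt1 -0.48, adjusted p = 0.0668), then triglyceride and lipid storage (-0.22, 19 tested, Plin4 -0.69, adjusted p = 0.118) and cholesterol synthesis and uptake (-0.06, 16 tested, Fdft1 -0.21, adjusted p = 0.458). In the fit with the title code, Igfbp3 (adjusted p = 0.0133) and Id2 (0.00458) were called higher and Flt1 (0.0131) and Plin4 (0.018) lower. That fit called 1 insulin and FoxO gene higher in all. It called 1 gene higher and 1 lower in each of the TGF-beta and angiogenesis lists. Of the lipid storage genes 1 was higher and 2 were lower, and no cholesterol gene was called. All genes tested had 1.13% higher and 6.21% lower in that fit.

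**Figure D4:**
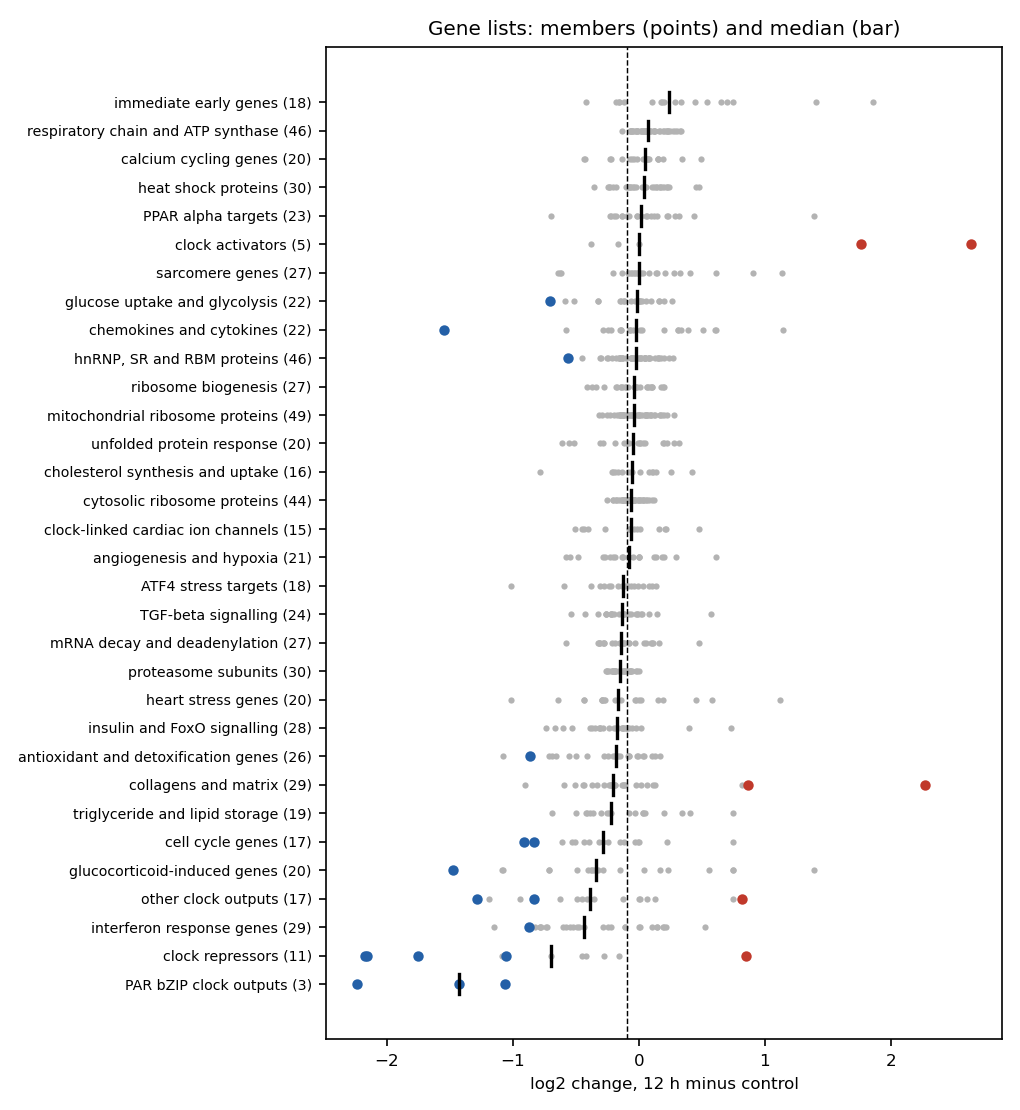
Log2 change at 12 h minus control (horizontal axis) of the tested members of 32 pathway lists, with the number tested in parentheses. Grey points are genes not called, red called higher, blue called lower, black bars list medians, and the dashed line the median of all genes (-0.10). Medians run from -1.43 for the PAR bZIP outputs to 0.24 for immediate early genes.

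The called genes outside the clock lists with a log2 change of at least 1 in size were also read at the other time points, where the same control hearts serve again. Spon2 had 5.75 ± 0.370 RPKM in the 12 h group, and in the 24 h, 72 h and 7 d groups 0.497 ± 0.085, 0.780 ± 0.300 and 2.62 ± 0.992 RPKM (SD, n = 3 each). Its 12 h hearts were the highest of all 15. Col5a3 had 7.80 ± 2.12 RPKM at 12 h, then 1.56 ± 0.315, 2.40 ± 0.520 and 6.62 ± 2.64 RPKM, so that 12 h and 7 d hearts overlapped. Rasl11a had 2.21 ± 0.306 RPKM at 12 h and means of 1.08, 0.657 and 1.10 RPKM later, against 0.820 RPKM in control hearts. Among the genes that fell, Ackr4 had 1.02 ± 0.196 RPKM at 12 h and means of 3.09, 3.72 and 2.85 RPKM later. Adh1 had 5.65 ± 0.182 RPKM at 12 h and then 24.6 ± 6.17, 11.7 ± 4.17 and 6.09 ± 1.19 RPKM, so its 7 d mean was near that of 12 h. Zbtb16 had means of 6.77, 23.3, 10.9 and 9.27 RPKM in the same order. Papln was higher at each later mean, with 2.04 ± 0.248 RPKM at 12 h, then 2.96 and 3.68 RPKM, and 4.72 ± 0.851 RPKM at 7 d.

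**Figure D5:**
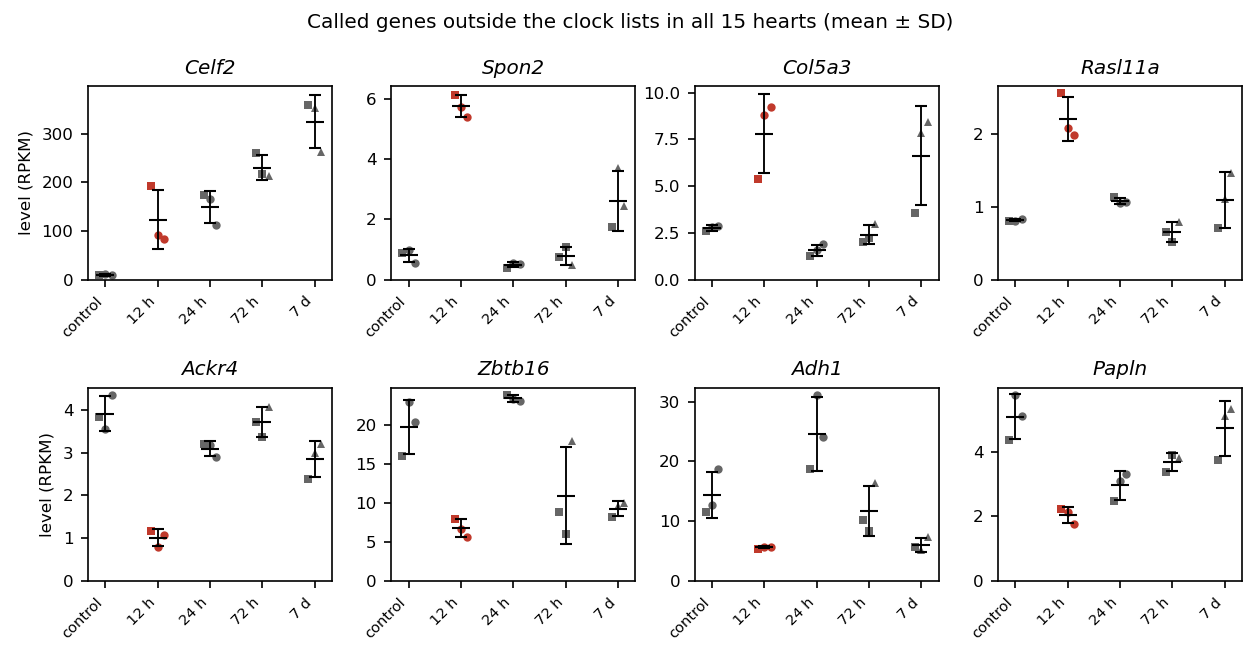
Level (RPKM, vertical axis) of Celf2 and of the called genes outside the clock lists with a log2 change of at least 1 in size, in the 15 hearts by group. Points are hearts (12 h in red, squares code A, circles code B, triangles code C), with the mean ± SD of each group of 3 as bars. Celf2 means run from 9.82 RPKM in control hearts to 324 RPKM at 7 d, while Spon2 is highest at 12 h (5.75 RPKM).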

How the data were processed

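RNA-seq values of 15 mouse ventricles were read from 1 table deposited by the authors, in RPKM. The authors mapped reads to mm9 with Bowtie and TopHat (versions not given), kept uniquely mapping reads, counted those in constitutive coding sequence of RefSeq genes, and scaled by gene length and by the number of reads outside ribosomal and mitochondrial sequence. Read totals could not be recovered from the deposited RPKM values, 11% of which were 0 in the 6 hearts, so depth is unknown and precision is given by the spread between hearts. Of 16199 identifiers, 16146 matched a RefSeq gene record, used for symbols. Positions of genes are mm9 and those of promoters GRCm38.p6.

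Groups came from the sample labels. A Celf1 cassette appears in the labels of the induced hearts and Celf1 in muscle in the text of the series. Neither matches the genotypes in the labels or the paper's methods, and neither was used. Values were taken as log2(RPKM + 0.5) and entered limma (3.58.1, R 4.3.3, trend option) with all 15 hearts in 5 groups and no covariate. Genes needed a mean of 1 RPKM or more in the 6 hearts, and the contrast was 12 h minus control. The pseudocount understates changes of genes at low levels. Calls had a Benjamini-Hochberg adjusted p under 0.05. The fit was also run on simulated hearts without a title code effect, which cannot show how it behaves where the code matters. Genes were named when among the 15 largest increases or 20 largest decreases of called genes with groups apart, as CELF or MBNL genes, or as list members (up to 4 called, otherwise the smallest adjusted p), and the remaining called genes and some list members were named after their values were seen. Values of 2 list members are not reported here, and these genes still count in the totals. The members, the lists and the tests were chosen with earlier results of these data known. Alternatives were other pseudocounts (0.1 and 1), filters, scalings, covariates, subsets of hearts and weights, and leaving out each heart. Figures were drawn with matplotlib 3.10.9 in Python 3.11.15.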

Additional observations from a re-analysis of the deposited data

Results flagged for a closer look

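For 19 of the 44 called genes the hearts at 24 h differed from those at 12 h (limma, adjusted p under 0.05 over all genes tested). The 12 h hearts enter both comparisons, so a difference of this kind is not separate evidence for the change from control. Among clock genes the log2 change from 12 h to 24 h was -2.31 for Arntl, -1.63 for Npas2, 2.51 for Per2, 1.48 for Per3, 1.51 for Ciart, 1.21 for Tef and 0.84 for Hlf. Among clock outputs it was 0.97 for Tspan4, 1.33 for Wee1 and -0.79 for Leo1.

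Of the matrix and adhesion genes, Spon2 changed by -2.65 from 12 h to 24 h, Col5a3 by -1.98, Mmp14 by -1.25 and Clmp by -1.31. Ackr4 changed by 1.25, Zbtb16 by 1.73, Adh1 by 2.00, Ephx1 by 0.70 and Slc25a33 by 0.89. The adjusted p of these differences ran from 3.9e-05 (Arntl, Spon2 and Per2) to 0.0497 (Ciart), with 3 hearts in each group.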

How the results depend on the processing

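Each of the 44 called genes kept its sign in every one of the 20 alternatives that tested it. Their groups do not overlap, so only the scalings and the Y-linked covariate could have turned a sign. The counts higher and lower were 13 and 31 in the report. They were 20 and 39 with no filter, 5 and 18 with a mean of at least 5 RPKM, 23 and 33 with median-ratio, 22 and 35 with upper-quartile and 26 and 34 with quantile scaling, 120 and 658 with the title code and 9 and 17 with Y-linked mRNA as a covariate. The 6 hearts alone gave 4 and 8, with the title code 16 and 48, the hearts of code B alone 41 and 203, and library quality weights 799 and 2783, where the weights did not converge. Leaving out 1 heart gave 4 to 24 higher and 7 to 158 lower, the highest without 12 h replicate 1, and the calls fell by over 1.5 times without 12 h replicate 2 or 3 or control replicate 2 or 3. Celf2 stayed called with log2 changes of 3.02 to 3.71. The calls of 10 genes held in all 6 fits without 1 heart and that of Rbm3 in none. Signs turned for genes that were not called. These were Mbnl1 (-0.64 to 0.00438 without 1 heart, the latter without 12 h replicate 3), Mbnl2 (0.0158 with median-ratio and 0.0133 with upper-quartile scaling), the leukocyte marker Ptprc (-0.0528 in code B alone, and -0.14 to 0.36 without 1 heart, the lowest without 12 h replicate 1) and the glial marker S100b (0.0162 with quantile scaling). The cause of these shifts was not tested. No paired analysis was possible because the labels carry no replicate numbers. The title code, used as a covariate, groups hearts and does not match single animals. With 3 hearts a group, unknown depth and 1 control heart of code A, small changes and low genes are measured poorly.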
